A study of Homo sapiens with 4 samples.

Results

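The 10 genes described here belong to 3 growth-arrest families, GADD45 (GADD45A, GADD45B, GADD45G), the sestrins (SESN1, SESN2, SESN3) and BTG/TOB (BTG1, BTG2, BTG3, TOB1). They were taken by symbol from a table of 39519 genes, and 9 of the 10 were expressed highly enough to be tested. The RNA came from U2OS, an established cell line of a human bone tumour (osteosarcoma), and was sequenced after removal of ribosomal RNA. The control group (sh-NC, a control hairpin, with DMSO) held 2 libraries. The knockdown group (sh-PURB, an inducible short hairpin RNA against PURB, induced for 72 h by 5.0 µg/ml of doxycycline) also held 2. Doxycycline was given with the PURB hairpin and DMSO with the control hairpin, so effects of the hairpin and of the drug cannot be told apart. The promoter of the hairpin construct, its target sequence and whether a line was 1 clone are not stated in the labels. The series title concerns PURB, the long noncoding RNA HOTAIR and activation of promoters by p53, and several of the 10 genes are textbook targets of p53.

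GADD45 proteins are small, acidic nuclear proteins without enzyme activity of their own. They act by binding partners, among them the kinase MAP3K4, which feeds the p38 and JNK pathways, and PCNA and CDK1. Sestrins are stress-inducible proteins that bind the GATOR2 complex and so hold down mTORC1, the kinase complex that couples amino acid supply to growth. SESN1 is best known as a p53 target, SESN2 as a target of p53 and of the stress factor ATF4, and SESN3 as a FOXO target. BTG and TOB proteins restrain proliferation, in part by tethering the CCR4-NOT deadenylase to mRNAs, which shortens poly(A) tails.

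PURB mRNA, the target of the hairpin, stood at 5.29 and 6.55 TPM under sh-NC and at 2.46 and 2.69 TPM under sh-PURB, 43.5% of the control mean. The groups did not overlap, but the adjusted p was 0.102 in limma over all tested genes, and an exact two-sided permutation test gave 0.333, the smallest p that 2 libraries against 2 allow. TPM, a length-scaled share of each library's transcripts, carries no information on how many reads support a value, so depth is unknown. Whether the 2 libraries of a group came from separate cultures is not stated, so each p-value reflects the spread of these libraries alone, and that spread may be technical. Between 13298 and 14207 genes reached 1 TPM in a library. Of 12 osteoblast and mesenchymal lineage markers, 6 reached 1 TPM in every library, among them RUNX2, COL1A1 and VIM, while IBSP and TWIST1 were listed at 0 throughout. The listed markers SP7, ALPL, COL1A2 and BGLAP stayed under 1 TPM in every library. The summed level of that list was 621 to 632 TPM in sh-NC and 536 to 614 TPM in sh-PURB. Most of it came from VIM (298 to 342 TPM over all libraries) and SPARC (220 to 262 TPM). Of 6 endothelial markers 0 reached 1 TPM in any library, and the summed levels of the epithelial (4 of 8 reaching 1 TPM somewhere), leukocyte (3 of 8) and neural (3 of 6) lists were at most 10.8, 9.09 and 7.91 TPM.

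In control cells each family was dominated by a single member. BTG3 had the highest level of all 10 genes at 30.7 ± 4.82 TPM (mean ± SD, n = 2 libraries, as for all values below), and it supplied 61.3% and 64.7% of the BTG/TOB transcripts of the 2 libraries. SESN3 followed at 19.4 ± 2.53 TPM, with 65.7% and 71.7% of the sestrin transcripts. GADD45A came next at 11.6 ± 1.03 TPM, with 62.9% and 64.2% of the GADD45 transcripts. Below these came BTG2 (8.81 TPM), GADD45B (6.65 TPM), SESN1 (5.33 TPM), TOB1 (5.12 TPM), BTG1 (4.01 TPM) and SESN2 (3.44 TPM). In this order the only neighbours whose libraries overlapped were SESN1 and TOB1. GADD45G was listed at 0 in every library except sh-PURB replicate 1, where it was at 0.0187 TPM, and it was not tested.

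**Figure D1:**
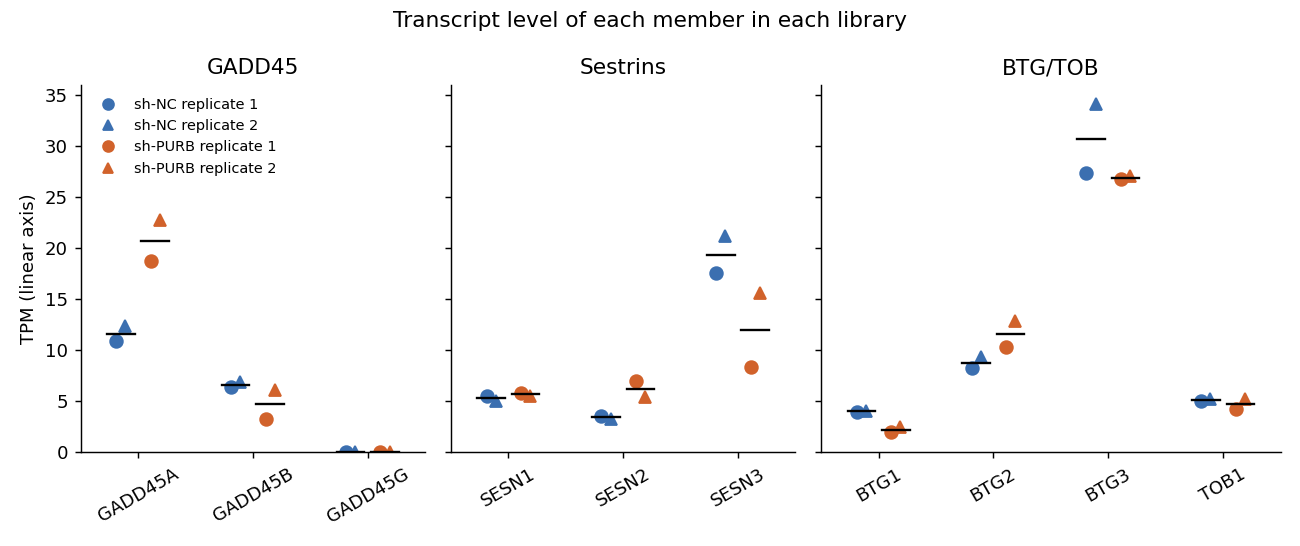
TPM (linear vertical axis) of the 10 genes in each library, by family. Blue marks are sh-NC and orange marks sh-PURB, circles replicate 1 and triangles replicate 2, and black bars are group means. BTG3 lies between 26.8 and 34.2 TPM in all 4 libraries, and GADD45A moves from 11.6 to 20.7 TPM on average.

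In sh-PURB cells the order changed in the middle of the list. BTG3 stayed first at 26.9 TPM and GADD45A was next at 20.7 TPM, above both SESN3 libraries. SESN3 (12.0 TPM) and BTG2 (11.6 TPM) overlapped, as did SESN2 (6.21 TPM) and SESN1 (5.70 TPM), and TOB1 (4.78 TPM) and GADD45B (4.70 TPM). BTG1 was the lowest of the tested members at 2.24 TPM.

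Differences between groups were then computed as sh-PURB minus sh-NC on the log2(TPM + 1) scale, which understates the change of low genes, and tested in limma over 14269 genes. Of the 9 tested members 0 passed an adjusted p of 0.05, where 0.287% of all tested genes did. The members' limma adjusted p-values ran from 0.115 to 0.847. At an unadjusted p under 0.05 there were 3 of 9, GADD45A, SESN2 and BTG1, against 15.3% of all tested genes. The 2 groups did not overlap for 7 of 9 members, against 47.9% of all tested genes. Higher in both sh-PURB libraries were GADD45A, SESN2 and BTG2 (18.6% of all tested genes lay so), and lower in both were GADD45B, SESN3, BTG1 and BTG3 (29.3%). The median difference of the 9 members was -0.09, beside -0.06 for all tested genes. Each family thus held members on both sides, as the plot of differences shows.

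**Figure D2:**
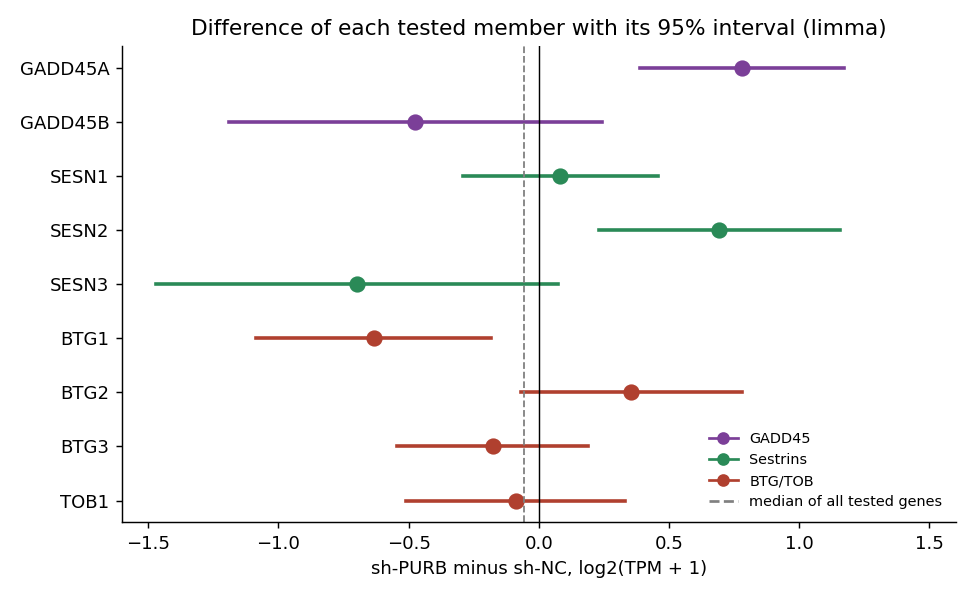
Difference between groups for each tested member (horizontal axis, sh-PURB minus sh-NC in log2(TPM + 1)), with its 95% interval from limma as a line and families in colour. The intervals of GADD45A, SESN2 and BTG1 do not cross 0, while the other 6 do, and the dashed line is the median of all tested genes at -0.06.

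When protein-coding genes alone were rescaled to a common sum and refitted, 1 of the 9 members, GADD45A, was called higher, with a limma adjusted p of 0.0286. In that fit 3.42% of all 11926 genes were called, and 1.32% of all were called as higher. It also called PURB (limma adjusted p = 0.0313). When TPM was recomputed after removal of mitochondrial and very abundant genes, the median over all genes shifted up by 0.13, which turned TOB1 from -0.09 to 0.04, still below the new median of 0.08.

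GADD45A is the p53-inducible member of its family and the prototype of the growth-arrest and DNA-damage genes. It was at 10.9 and 12.3 TPM under sh-NC and at 18.7 and 22.7 TPM under sh-PURB. Both sh-PURB libraries lay above both controls, with a ratio of means of 1.78. The difference was 0.78 with a standard error of 0.15 (limma adjusted p = 0.115), and its 95% interval ran from 0.39 to 1.17. Of all tested genes, 3.03% had a larger difference. GADD45A lies on chromosome 1 at 67685061 to 67688338, plus strand (GRCh38, GENCODE annotation, as for the other positions below).

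GADD45B, the member best known as a target of NF-kB and TGF-beta signalling, lay in the opposite direction. It was at 6.43 and 6.88 TPM under sh-NC and at 3.25 and 6.14 TPM under sh-PURB. The groups did not overlap, but 1 library was far lower than the other 3. The difference of -0.47 (SE 0.28, limma adjusted p = 0.489) was -0.10 with sh-PURB replicate 1 left out and -0.85 with sh-PURB replicate 2 left out. GADD45B lies on chromosome 19 at 2476122 to 2478259, plus strand.

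Within each library GADD45A exceeded GADD45B by a factor of 1.69 and 1.79 in sh-NC and of 5.75 and 3.70 in sh-PURB. GADD45A thus made up 85.1% and 78.7% of the family's transcripts in sh-PURB. GADD45B made up 37.1% and 35.8% in the control libraries against 14.8% and 21.3%. The difference between the 2 genes on the log2(TPM + 1) scale was 1.25 larger in sh-PURB than in sh-NC. The summed level of the family was 17.3 and 19.2 TPM in sh-NC against 22.0 and 28.9 TPM in sh-PURB, 1.39 times control.

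SESN2, the sestrin most responsive to amino acid and mitochondrial stress, was at 3.59 and 3.28 TPM under sh-NC and at 6.999 and 5.42 TPM under sh-PURB. Both sh-PURB libraries were higher than both controls, and the ratio of means was 1.81. The difference was 0.69 (SE 0.18, limma adjusted p = 0.182), and the 95% interval was 0.23 to 1.15. SESN2 lies on chromosome 1 at 28259527 to 28282491, plus strand.

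SESN3 was at 17.6 and 21.2 TPM under sh-NC and at 8.39 and 15.7 TPM under sh-PURB, 0.621 of control. Both sh-PURB libraries were lower than both controls, but they lay far apart. The difference was -0.70 (SE 0.30, limma adjusted p = 0.362), and it was -0.28 with sh-PURB replicate 1 left out and -1.11 with sh-PURB replicate 2 left out. SESN3 lies on chromosome 11 at 95165513 to 95232541, minus strand.

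SESN1, the sestrin first described as a p53 target, was at 5.58 and 5.08 TPM under sh-NC and at 5.84 and 5.56 TPM under sh-PURB. The libraries overlapped. The difference of 0.08 had a 95% interval from -0.29 to 0.46 (limma adjusted p = 0.835), and it was 0.03 without sh-NC replicate 2. SESN1 lies on chromosome 6 at 108986437 to 109094819, minus strand.

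In these libraries the make-up of the sestrin family differed between the groups, although limma called no sestrin. The family's summed level was 0.851 of control. SESN2 supplied 13.4% and 11.1% of sestrin transcripts in sh-NC and 33.0% and 20.3% in sh-PURB. SESN3 supplied 39.5% and 58.8% in sh-PURB, below its shares in both controls. The TPM of SESN2 relative to SESN3 was 0.204 and 0.155 in sh-NC and 0.835 and 0.346 in sh-PURB, a shift of 1.39 on the log2(TPM + 1) scale. It was 0.82 with sh-PURB replicate 1 left out and 1.96 with sh-PURB replicate 2 left out. SESN1 exceeded SESN2 by a factor of 1.55 in both controls and stood at 0.834 and 1.03 times SESN2 in sh-PURB. The summed level was 26.8 and 29.5 TPM in sh-NC against 21.2 and 26.6 TPM in sh-PURB.

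**Figure D3:**
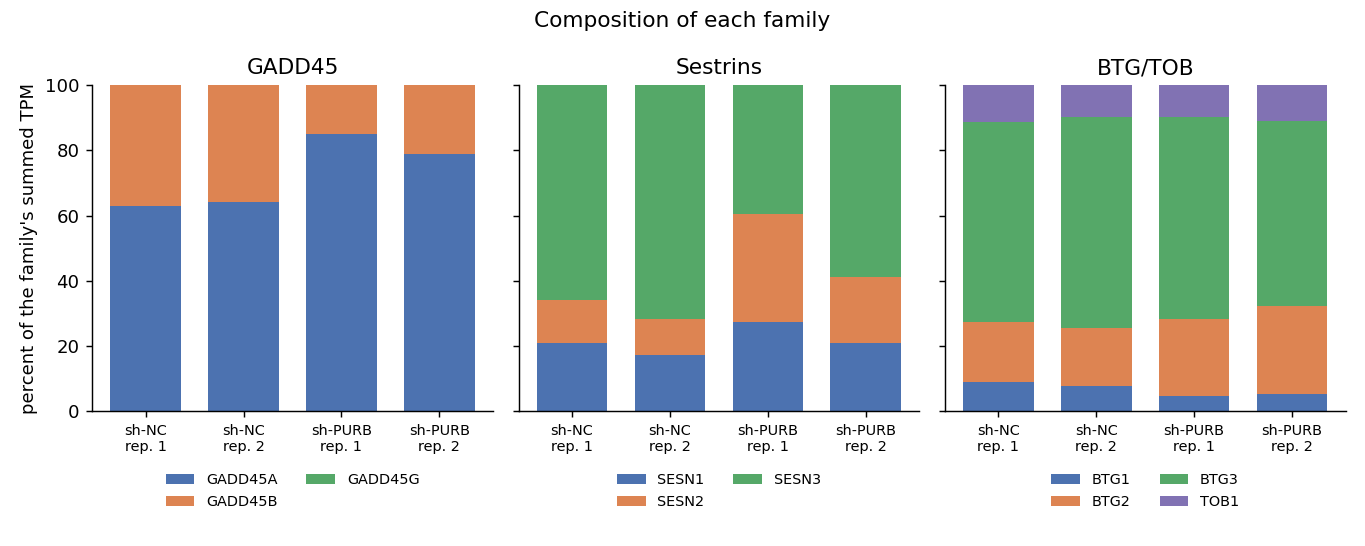
Percent of each family's summed TPM (vertical axis, stacked bars from 0) supplied by each member in each library. In GADD45 the GADD45A part grows from 62.9% and 64.2% to 85.1% and 78.7%, in the sestrins the SESN2 part grows from 13.4% and 11.1% to 33.0% and 20.3%, and BTG3 supplies 56.7% to 64.7% of BTG/TOB in all 4 libraries.

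BTG1, an antiproliferative gene highly expressed in quiescent cells, was at 3.98 and 4.05 TPM under sh-NC and at 2.00 and 2.48 TPM under sh-PURB. Both sh-PURB libraries were lower, at 0.558 of the control mean. The difference was -0.63 (SE 0.17, limma adjusted p = 0.204), and the 95% interval was -1.08 to -0.18. BTG1 lies on chromosome 12 at 92140278 to 92145897, minus strand. Its level was too low for the stricter filter at TPM 5.

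BTG2 (also called TIS21 or PC3), the family member best known as a p53 target and immediate-early gene, was at 8.25 and 9.36 TPM under sh-NC and at 10.3 and 12.9 TPM under sh-PURB. Both sh-PURB libraries were higher, at 1.32 times control. The difference of 0.36 (SE 0.16, limma adjusted p = 0.393) had a 95% interval from -0.07 to 0.78, and it was 0.20 without sh-PURB replicate 2. BTG2 lies on chromosome 1 at 203305491 to 203309602, plus strand.

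BTG3, an inhibitor of E2F1 and itself a p53 target, was at 27.3 and 34.2 TPM under sh-NC and at 26.8 and 27.1 TPM under sh-PURB. The sh-PURB libraries lay just under the lower control. The difference was -0.18 (SE 0.14, limma adjusted p = 0.621) and -0.02 without sh-NC replicate 2. TOB1, a partner of CCR4-NOT and of SMAD proteins, was at 5.05 and 5.19 TPM under sh-NC and at 4.28 and 5.27 TPM under sh-PURB. Its groups overlapped, and the difference of -0.09 (limma adjusted p = 0.847) became 0.04 without sh-PURB replicate 1. BTG3 lies on chromosome 21 at 17593653 to 17612947 and TOB1 on chromosome 17 at 50862223 to 50867978, both on the minus strand.

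The family has further paralogs outside the list. TOB2, the closest relative of TOB1, was at 6.83 and 8.19 TPM under sh-NC and at 5.48 and 6.52 TPM under sh-PURB (difference -0.28, limma adjusted p = 0.495). BTG4, an oocyte gene, did not exceed 0.181 TPM in any library.

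Within libraries, BTG1 was lower relative to BTG2 and to TOB1 in both sh-PURB libraries than in either control. The TPM of BTG1 was 0.482 and 0.432 of that of BTG2 in sh-NC and 0.194 and 0.192 in sh-PURB. On the log2(TPM + 1) scale BTG1 minus BTG2 was -0.97 ± 0.10 in sh-NC and -1.96 ± 0.06 in sh-PURB. BTG1 relative to TOB1 was 0.788 and 0.780 in sh-NC and 0.467 and 0.471 in sh-PURB. BTG3 minus TOB1 overlapped between the groups (sh-PURB minus sh-NC -0.09). The summed level of the family was 44.6 and 52.8 TPM in sh-NC against 43.4 and 47.7 TPM in sh-PURB.

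In all, 10 paralog pairs within families were compared, with the 2 pairs that include GADD45G left out. The groups did not overlap for 9 of the 10. Each of these 9 had an exact two-sided permutation p of 0.333, the smallest possible, which became 0.370 after Benjamini-Hochberg adjustment. The share of all gene pairs that lie so was not computed, so the count has no background. Among single genes, the groups did not overlap for 47.9% of all tested genes. No pair could pass the threshold in this design, and pairs that share a gene are not independent. In 6 pairs the 2 genes differed in the sign of their own differences.

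**Figure D4:**
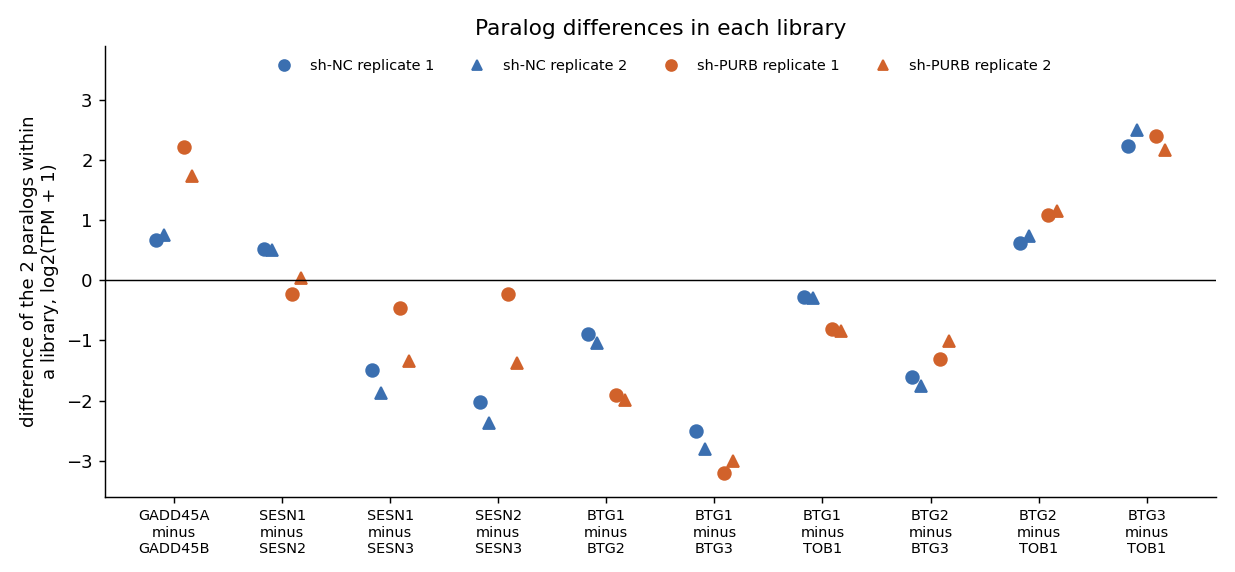
Difference between 2 paralogs within each library (vertical axis, log2(TPM + 1) of the first gene minus that of the second) for the 10 pairs. Blue marks are sh-NC and orange marks sh-PURB, circles replicate 1 and triangles replicate 2. The groups are apart in 9 pairs and overlap in BTG3 minus TOB1, and the sh-PURB libraries of SESN2 minus SESN3 spread from -1.38 to -0.23.

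Promoter sequence was set beside these differences because some paralogs differed in sign, although limma called no member over all genes. RefSeq windows (GRCh38.p14) of 250 bases before the start were given for 9 of the 10 members, 12 windows in all. GADD45A had no window, so its promoter was not searched for any motif. They are shown for 2 members that were higher in both sh-PURB libraries (SESN2, BTG2) and 2 that were lower in both (BTG1, GADD45B). Capitals mark CCAAT or TATAAA on either strand.
SESN2 (chr1:28259268-28259517, plus): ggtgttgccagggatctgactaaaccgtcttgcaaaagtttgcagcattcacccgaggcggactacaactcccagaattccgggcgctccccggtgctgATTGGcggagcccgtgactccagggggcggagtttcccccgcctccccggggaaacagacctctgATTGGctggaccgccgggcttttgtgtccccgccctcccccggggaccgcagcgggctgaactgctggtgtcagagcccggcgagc
BTG2 (chr1:203305269-203305518, plus): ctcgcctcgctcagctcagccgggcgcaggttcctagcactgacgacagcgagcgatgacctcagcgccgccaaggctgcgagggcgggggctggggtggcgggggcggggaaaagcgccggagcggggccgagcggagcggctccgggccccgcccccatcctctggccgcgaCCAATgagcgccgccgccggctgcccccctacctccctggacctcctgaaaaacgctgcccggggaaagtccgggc
BTG1 (chr12:92145847-92146096, minus): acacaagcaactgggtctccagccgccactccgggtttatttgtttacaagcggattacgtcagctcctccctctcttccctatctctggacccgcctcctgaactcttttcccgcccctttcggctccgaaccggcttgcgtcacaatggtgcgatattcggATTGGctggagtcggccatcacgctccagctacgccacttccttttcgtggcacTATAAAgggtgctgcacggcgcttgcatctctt
GADD45B (chr19:2475877-2476126, plus): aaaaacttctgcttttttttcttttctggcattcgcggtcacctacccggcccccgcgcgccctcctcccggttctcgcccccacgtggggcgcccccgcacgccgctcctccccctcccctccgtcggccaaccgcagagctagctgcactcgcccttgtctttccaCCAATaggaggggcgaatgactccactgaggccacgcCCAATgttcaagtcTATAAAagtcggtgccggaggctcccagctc

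These 4 windows were picked after the matches were seen, and all hold CCAAT, the motif of the factor NF-Y, at 2 places in SESN2 and GADD45B. The windows of SESN3 and BTG3, which were also lower in both sh-PURB libraries, hold neither CCAAT nor TATAAA. The TATA box, TATAAA, began 33 bases before the start in BTG1 and 31 bases before it in GADD45B, and was in none of the other member windows. Over the 35116 RefSeq windows of the same length, 32% hold CCAAT and 10.7% hold TATAAA on either strand, against 8 and 2 of the 12 member windows. GGNGGNGG, a purine-rich repeat of the kind that PUR proteins bind as single strands, was in 8 of 12 member windows and in 49.1% of all, and the GC box GGGCGG was in 8 of 12 and in 42.6% of all. GGNGGNGG can overlap GGGCGG. TGATGNAA, the core of the C/EBP-ATF element that ATF4 uses, was in the GADD45G window only (3.14% of all), and TGACGTCA, the CRE, in none (1.65% of all). The p53 decamer motif was found once, 49 bases before 1 of 3 annotated starts of SESN1 (5.57% of all windows hold one). These are matches of letters, and binding was not measured.

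Transcript structure sets the families apart. In GENCODE the longest basic coding transcripts have 4 exons in all GADD45 genes, 10 in all sestrins, 2 in BTG1, BTG2 and TOB1 and 6 in BTG3. The proteins run from 158 residues (BTG2) to 551 (SESN1). Copies of ATTTA, the core of AU-rich elements that shorten mRNA life, were counted after the stop codon and set per kilobase, since these stretches run from 440 bases in BTG3 to 7742 in SESN3. BTG3 has 6.82 copies per kilobase, TOB1 5.28, SESN3 3.75 and GADD45A 3.55, all above the median of 1.47 over 19068 coding genes. BTG1 (1.32), BTG2 (0.924) and SESN1 (0.903) lie below that median, and SESN2, GADD45B and GADD45G have 0 copies. Members that were higher and members that were lower in sh-PURB thus stand on both sides of the median.

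No word of 31 bases is shared between transcripts of any of the 10 members, so reads of that length cannot be confused between these paralogs. Overlap with other genes was present. BTG1 shares 14.8% of its words with LINC01619 and with BTG1-DT, a divergent noncoding transcript, on either strand. BTG1-DT was at 0.586 and 0.411 TPM under sh-NC and at 0.371 and 0.226 TPM under sh-PURB. BTG3 shares 9.52% of its words with BTG3-AS1 and TOB1 shares 8.81% with TOB1-AS1. BTG3-AS1 and TOB1-AS1 did not exceed 0.962 and 1.53 TPM in any library. A strand setting for the counting was not found in the labels, so reads in these overlaps cannot be told apart. GADD45A, GADD45B, GADD45G, SESN2 and BTG2 share 0 words with any other gene.

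The genes through which these proteins act were examined as lists, described by counts and medians. For counts by sign, 5935 of all 14269 tested genes lay above 0 and 8334 below. Of 18 partners of GADD45, 0 were called over all genes. CDKN1A (p21), which like GADD45A is a p53 target, was at 36.5 and 48.5 TPM under sh-NC and at 73.8 and 67.9 TPM under sh-PURB (limma adjusted p = 0.143). CDK1, the mitotic kinase that GADD45 proteins inhibit, was at 60.4 and 66.0 against 44.4 and 46.0 TPM (limma adjusted p = 0.138). PCNA, the replication clamp, was at 0.755 of control, and MAPK14, which encodes p38 alpha, at 0.733. The median of the list was -0.10 (up to 0.03 under other settings), and 3 members were lower and 1 higher at an unadjusted limma p under 0.05, where 9.53% and 5.77% of all tested genes were.

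The sestrin pathway was examined through its sensors and its target kinase complex. Of 35 genes of the GATOR, Rag, LAMTOR, mTORC1 and AMPK complexes and related factors, 19 lay above 0 and 16 below, with a median of 0.02 and a range from -0.39 to 0.45. None was called by limma, with 3 at an unadjusted p under 0.05, where 15.3% of all tested genes were. RPTOR, the scaffold of mTORC1, was at 1.47 times control and KICS2, a subunit of the KICSTOR complex that holds GATOR1 on lysosomes, at 1.56 times. SQSTM1, an autophagy receptor that binds sestrins, was at 0.769 of control, and DDIT4, another stress-induced inhibitor of mTORC1, at 0.799.

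For BTG/TOB the list was CCR4-NOT, the other deadenylases, poly(A)-binding proteins and known partners. Of 24 tested genes 11 lay above 0 and 13 below, with a median of -0.02, and limma called 0, with 4 at an unadjusted p under 0.05 (15.3% of all tested genes). PABPC1, the main cytoplasmic poly(A)-binding protein, was at 203 and 299.8 TPM under sh-NC and at 331 and 408 TPM under sh-PURB. SMAD9, a receptor-activated SMAD of BMP signalling, was at 2.68 and 4.55 against 0.700 and 1.65 TPM, SMAD5 was at 0.782 of control and TNKS1BP1, which binds CCR4-NOT, at 0.758. The limma adjusted p-values of these 4 ran from 0.234 to 0.318.

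Transcription factors that act on these families differed in direction. ATF4 was at 164 and 152 TPM under sh-NC and at 264 and 217 TPM under sh-PURB (limma adjusted p = 0.131), and its relatives and cofactors NUPR1 and ATF3 were at 1.85 and 2.06 times control. MYC was at 8.35 and 8.30 against 17.7 and 15.6 TPM (limma adjusted p = 0.0743). The 19 tested factors had a median of 0.01, and limma called 0 of them over all genes, with 4 above 0 and 1 below at an unadjusted p under 0.05 (5.77% and 9.53% of all tested genes). The fit of protein-coding genes called 3 of them higher (1.32% of its genes), MYC, ATF4 and NUPR1, with limma adjusted p-values of 0.0166, 0.0362 and 0.0415.

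The other targets of these factors were set beside SESN2 and GADD45A. The lists were chosen with earlier results of these data known, so their counts describe and do not test. Whether ATF4 or p53 acts on SESN2 or GADD45A here was not tested. Of 24 tested ATF4 targets outside the 10 members, 23 lay above 0, where 5935 of all 14269 tested genes did. The list's median was 0.81, and the groups did not overlap for 22, all higher in sh-PURB (18.6% of all tested genes). Limma called 1 of the 24 over all genes, the asparagine synthetase gene ASNS (3.18 times control, limma adjusted p = 0.0464). There were 20 higher at an unadjusted limma p under 0.05 (5.77% of all tested genes). The fit of protein-coding genes called 15 higher (1.32% of its genes). PCK2 was at 2.34, ALDH1L2 at 3.20 and FGF21 at 6.49 times control. This list is not a full set of ATF4 targets. DDIT4, held in the sestrin list instead, was lower in both sh-PURB libraries, at 0.799 of control. The difference of SESN2, at 0.69, was below the median of the ATF4 list, but above it (0.74 against 0.69) without sh-NC replicate 1. Of 19 tested p53 targets for arrest and feedback, 13 lay above 0, where 5935 of all 14269 tested genes did. The list's median was 0.21, but 0.07 with sh-PURB replicate 2 left out and 0.09 with sh-NC replicate 1 left out. Limma called 0 of the 19 over all genes. At an unadjusted p under 0.05 limma had 4 above 0 and 1 below (5.77% and 9.53% of all tested genes). The fit of protein-coding genes called 1 of the 19 higher, CDKN1A (limma adjusted p = 0.0301), where 1.32% of its genes were. CCNG1 was at 1.39, RPS27L at 1.35 and FBXO22 at 1.35 times control. The difference of GADD45A, at 0.78, lay above the list's median in the fit of all 4 libraries. In that fit it was also above the list's highest gene, CDKN1A at 0.74, by less than the standard error of GADD45A. BTG3 and TOB1 lay below the list's median in the fit of all 4 libraries and with each library left out. SESN1, at 0.08, lay below it too, but above it without sh-PURB replicate 2 (0.11) and without sh-NC replicate 1 (0.14).

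**Figure D5:**
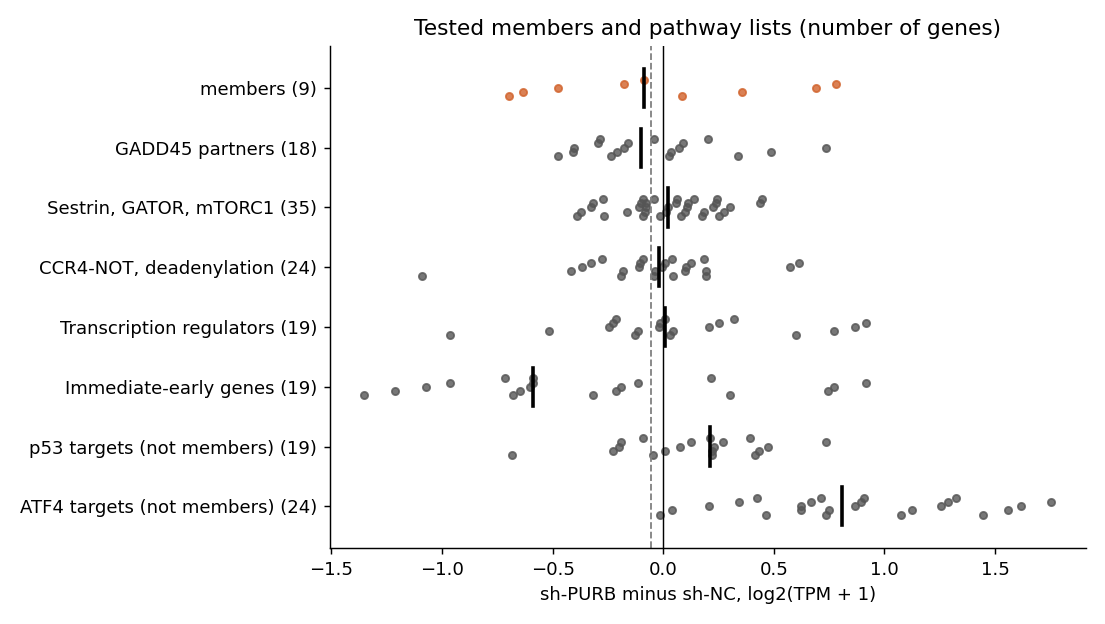
Difference between groups (horizontal axis, sh-PURB minus sh-NC in log2(TPM + 1)) for the 9 tested members (orange) and the tested genes of the 7 lists (grey). Each point is a gene, black bars are medians and the dashed line is the median of all tested genes. The ATF4 targets centre on 0.81, the members on -0.09 and the immediate-early genes on -0.59.

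Immediate-early genes were examined because GADD45B and BTG2 are induced with them. Of 19 tested genes 14 lay below 0, where 8334 of all 14269 tested genes did. The list's median was -0.59, but -0.002 with sh-NC replicate 2 left out and -0.13 with sh-PURB replicate 1 left out. JUNB was at 24.6 and 26.5 TPM under sh-NC and at 9.19 and 11.9 TPM under sh-PURB, and IER3 was at 0.466 of control (limma adjusted p = 0.0673 and 0.0744). MYC and ATF3, which this list also holds, lay the other way. Limma called 0 of the list over all genes. At an unadjusted p under 0.05 limma had 3 above 0 and 5 below (5.77% and 9.53% of all tested genes). The fit of protein-coding genes called 1 higher and 2 lower, where 157 and 251 of all its 11926 genes were. FOS, named after its values were seen, was at 9.26 and 79.1 TPM under sh-NC and at 2.04 and 40.5 TPM under sh-PURB, higher in replicate 2 of each group. So were 7 of the 9 tested members, all but SESN1 and SESN2. The share of all tested genes that lie so was not computed, so this count has no background. Also higher in replicate 2 was the median log2(TPM + 1) over tested genes, at 2.86 and 2.97 in sh-NC and 2.78 and 2.91 in sh-PURB. The part of this spread between replicates in the members' values was not tested.

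The genes whose pattern over the 4 libraries lay nearest to a member were found from the root mean square distance of log2(TPM + 1), each gene centred on its own mean. With 4 libraries many genes lie close, and nothing about shared control follows. Nearest to GADD45A were CFAP251, LINC00662 and BMPR1B, at distances of 0.04 to 0.05. Nearest to SESN2 were ATP5MC1 (0.009), EPB41L3 (0.02) and CARS1 (0.02), of which CARS1 encodes the cytosolic cysteinyl-tRNA synthetase and ATP5MC1 a subunit of ATP synthase. Nearest to BTG1 were C4orf3, SAPCD2 and IRX4, at 0.01 to 0.02.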

How the data were processed

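Total RNA of 4 U2OS libraries was depleted of ribosomal RNA and made into libraries with Illumina TruSeq chemistry, per the labels' protocols. The values are TPM per gene symbol as the authors deposited them, and the 4 tables of single libraries equal the table of all samples. Tools listed without roles in the submitters' processing notes are kallisto 0.44.0, bcl2fastq 2.19, DESeq2 and sleuth, and the listed builds are GRCm38 and GRCh38. A row without a gene name (0.921% to 1.66% of a library) was left out. TPM is a share, so abundant RNAs move all other genes. Genes annotated as protein-coding made up 25.5% to 27.2% of the summed TPM of named genes in a library.

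Groups came from the titles. Genes that reached 1 TPM in 2 or more libraries were tested with limma 3.58.1 (R 4.3.3) on log2(TPM + 1), with the trend option, p-values adjusted by Benjamini-Hochberg across the whole table, 2 residual and 2.92 prior degrees of freedom. Paralog pairs had exact permutation tests. The fit was tested on simulated data. The text names the 10 members, PURB, TOB2 and BTG4, up to 4 genes of smallest p per list and 3 nearest genes for 1 member per family. Members and lists were chosen with earlier results of these data known. Gene types, positions and transcripts came from GENCODE v29. Plots used matplotlib 3.10.9 under Python 3.11.15. Alternatives were other pseudocounts, filters, scalings and limma settings, a replicate block, protein-coding genes only and leaving out each library.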

Additional observations from a re-analysis of the deposited data

How the results depend on the processing

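The count of genes called by limma over all genes was 41 (12 higher, 29 lower), and it was 0 (0 higher, 0 lower) with a pseudocount of 0.1, with no filter on level, without the limma trend and on leaving out any library (0 to 0), where 1 residual degree of freedom is left and the lone library is assumed to vary like the other group. At unadjusted p under 0.05 limma had 2184. The count was 121 (31 higher, 90 lower) at TPM of at least 5, 80 (30 and 50) after median-ratio rescaling, 118 (45 and 73) after quantile normalization, 60 (26 higher, 34 lower) with recomputed TPM, 408 (157 and 251) for protein-coding genes and 125 (43 and 82) with robust moderation. Recomputed TPM took the share of higher calls from 29.3% to 43.3%. The members called were 0 except for 1, GADD45A, among protein-coding genes, where PURB went from -0.95 to -1.07 and passed the threshold. On leaving out each library the difference of PURB ran from -1.08 to -0.81 and members called from 0 to 0. With the replicate block the count was 118 (41 higher, 77 lower) and the members called were 0. Whether same-numbered libraries share more than a label is not stated. With 2 pairs, the deviations of same-numbered libraries correlated at 0.19 across 14269 tested genes, which are not independent. Pairing was not tested. GADD45A, GADD45B, SESN1, SESN2, SESN3, BTG1, BTG2 and BTG3 kept their direction in each alternative in which they were tested. TOB1 turned to 0.042 with recomputed TPM, and on leaving out each library it ran from -0.21 to 0.035, the latter without sh-PURB replicate 1. BTG3 minus TOB1 ran from -0.23 to 0.051 on leaving out each library, turning when sh-NC replicate 2 (0.051) or sh-PURB replicate 2 (0.029) was left out, and the other 9 pairs kept their sign. Over all alternatives the medians of 4 lists crossed 0, GADD45 partners from -0.21 to 0.03, sestrin and mTORC1 genes from -0.01 to 0.17, BTG/TOB partners from -0.07 to 0.12 and transcription regulators from -0.03 to 0.13. Depth is unknown for TPM, so the precision of low genes such as BTG1 cannot be stated beyond the spread of 2 libraries.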
